A study of Mus musculus with 7 samples.

Results

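Expression of 9 genes that T cells switch on after an antigen receptor signal was described in mouse T-cell leukemias of 2 kinds: the zinc finger factors Egr1, Egr2 and Egr3, the orphan nuclear receptors Nr4a1, Nr4a2 and Nr4a3, and the surface proteins Cd69, Tnfrsf9 (4-1BB) and Tnfrsf4 (OX40). Members were every probe set whose annotation named exactly 1 of these symbols, which gave 20 of the 45037 probe sets on the array and 9 of 18193 genes. Leukemic cells were profiled as 4 thymus samples for TEL-JAK2 and 3 bone marrow samples for ICN1. TEL-JAK2 leukemia is driven by a fusion that keeps the kinase JAK2 active, and ICN1 leukemia by the activated intracellular part of NOTCH1. The mice were at the terminal stage of disease. All were C57Bl/6, and RNA of each suspension was hybridized to 1 Affymetrix mouse array. No agent was given in the labels, no sort is named, and the ages, the promoters behind the oncogenes and how these were introduced are not known from the sources used here. Each genotype came from 1 tissue, so genotype and tissue cannot be told apart in any difference below. Whether the arrays of a group are separate animals is not stated outright, so p-values measure only the spread between these samples. Replicates are numbered in accession order.

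In a T cell, the antigen receptor activates calcium and MAP kinase signals that reach the promoters of immediate early genes within minutes, without new protein synthesis. EGR factors are zinc finger activators held in check by the corepressors NAB1 and NAB2. EGR2 and EGR3 take part in thymocyte selection and in restraint of peripheral T cells. NR4A receptors bind DNA without a known physiological ligand, follow the strength of the receptor signal and take part in the deletion of self-reactive thymocytes. CD69 is an early activation antigen that keeps lymphocytes in tissue by pulling the receptor S1PR1 off the surface, and 4-1BB and OX40 are costimulatory receptors of the TNF receptor family. Several of these genes are also induced in activated myeloid, B and NK cells.

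The promoters of Egr2, Nr4a1, Nr4a3 and Tnfrsf9 are shown as examples of genes with a widely varying probe set, each above the 90th percentile of all probe sets in its spread within a leukemia. The sequences are RefSeq's for GRCm38.p6, from 250 bases before to 50 bases after a listed start, on the strand of the gene. RefSeq's table listed 11 starts for 6 of the 9 genes. Capitals mark letters that match a searched motif on either strand, namely the CArG box of serum response factor, the CREB half-site TGACG, the EGR site GCGNGGGCG, the NR4A site AAAGGTCA, the STAT motif TTCNNNGAA, the AP-1 motif TGANTCA and the NF-kB site. Overlapping matches form 1 run of capitals.
Egr2, chr10:67537619-67537918, plus strand: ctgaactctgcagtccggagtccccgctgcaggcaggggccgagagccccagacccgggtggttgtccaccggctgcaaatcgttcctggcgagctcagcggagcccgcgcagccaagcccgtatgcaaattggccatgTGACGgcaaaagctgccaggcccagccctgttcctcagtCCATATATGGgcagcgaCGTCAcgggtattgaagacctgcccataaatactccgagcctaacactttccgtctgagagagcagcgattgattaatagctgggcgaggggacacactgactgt
Nr4a1, chr15:101266596-101266895, plus strand: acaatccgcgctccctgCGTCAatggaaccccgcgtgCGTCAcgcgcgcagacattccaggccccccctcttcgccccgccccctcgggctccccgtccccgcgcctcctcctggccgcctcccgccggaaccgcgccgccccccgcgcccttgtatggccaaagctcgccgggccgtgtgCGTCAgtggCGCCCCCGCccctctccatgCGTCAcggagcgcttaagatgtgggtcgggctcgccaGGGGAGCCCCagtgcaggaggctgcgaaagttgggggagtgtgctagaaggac
Nr4a3, chr4:48045055-48045354, plus strand: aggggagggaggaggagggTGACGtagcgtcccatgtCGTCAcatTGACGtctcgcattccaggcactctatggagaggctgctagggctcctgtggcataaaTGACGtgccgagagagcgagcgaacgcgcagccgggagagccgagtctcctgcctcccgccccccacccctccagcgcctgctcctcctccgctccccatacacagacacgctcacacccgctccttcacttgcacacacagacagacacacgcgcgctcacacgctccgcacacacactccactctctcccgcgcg
Tnfrsf9, chr4:150927749-150928048, plus strand: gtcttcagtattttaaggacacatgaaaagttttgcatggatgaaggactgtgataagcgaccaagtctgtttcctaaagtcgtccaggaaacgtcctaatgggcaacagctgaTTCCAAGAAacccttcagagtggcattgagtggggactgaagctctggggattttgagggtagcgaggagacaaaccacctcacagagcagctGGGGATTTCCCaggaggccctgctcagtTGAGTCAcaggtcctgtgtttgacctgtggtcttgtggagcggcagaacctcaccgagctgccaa

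The Egr2 window shown held 1 CArG box and 2 CREB half-sites, and other Egr2 starts in the table differed. The window at chr10:67535249-67535548 held neither motif, but 2 overlapping NF-kB matches. That at chr10:67537316-67537615 held 1 CArG box and no CREB half-site. A CArG box was found in 1.63% and a CREB half-site in 20.8% of all 32851 promoters of this length. The Nr4a1 and Nr4a3 windows held 4 CREB half-sites each, and that of Nr4a1 also held 1 EGR site (5.55% of all promoters) and 1 NF-kB match (8.46%). The Tnfrsf9 window shown held 1 STAT motif (8.3%), 2 overlapping NF-kB matches and 1 AP-1 motif (7.81%). The other Tnfrsf9 start in the table, at chr4:150919905-150920204, held none of the 7 motifs. No NR4A site, present in 1.51% of all promoters, lay in any of the 11 windows. A match describes letters and not binding.

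Values are log2 expression after RMA, so 1 unit is a doubling, and array medians lay between 5.44 and 5.50. Levels of different probe sets cannot be compared with each other. The cells carried T-lineage transcripts in both groups, and 6 of 9 measured T-lineage markers were called higher in TEL-JAK2 (list mean 12.15 to 12.76 in TEL-JAK2 and 11.33 to 11.82 in ICN1). Erythroid markers averaged 5.79 to 6.11 in TEL-JAK2 and 11.06 to 11.31 in ICN1. ICN1 replicates 1 and 2 held both Xist (11.51 and 11.78) and the Y-linked Eif2s3y (8.93 and 9.41), so the members' differences are also given without these 2 arrays. TEL-JAK2 replicate 4 held Eif2s3y (10.23) and little Xist (5.19). TEL-JAK2 replicates 1 to 3 and ICN1 replicate 3 held Xist (12.09 to 13.36) and little Eif2s3y (3.18 to 3.29). In a bulk sample, fewer cells of a type and less RNA per cell cannot be told apart. A probe set was called where limma's moderated test gave a p under 0.05 after Benjamini-Hochberg adjustment over all 45037, and by this rule 19.6% of probe sets differed between the leukemias (9.26% higher and 10.3% lower in TEL-JAK2). Centring each array on 4 CD3 genes instead shifts every difference by -0.62 and the median of all probe sets to -0.59, and calls 70.1% of them, 3.46% higher and 66.6% lower.

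None of the 20 member probe sets was called, 0 higher and 0 lower in TEL-JAK2, against the 19.6% of all probe sets. At an unadjusted p under 0.05, limma marked 6 of the 20, 3 higher and 3 lower, against 32.4% of all probe sets (16.6% higher and 15.7% lower), and a test with unequal variances marked 2. The groups did not overlap in 6 of the 20, against 30.7% of all probe sets. Differences were positive for 11 and negative for 9, with a median of 0.07 against 0.04 over all probe sets. With CD3 centring 7 of the 20 were called lower and 0 higher, against 66.6% and 3.46% of all probe sets. Without that centring, the largest differences were a lower Egr1 and a higher Cd69 and Tnfrsf9 in TEL-JAK2, each of which missed the adjusted threshold. Arrays of the same leukemia lay far apart in many members. The within-group standard deviation (SD) lay above the 90th percentile of all probe sets, 0.46 log2, for 11 of the 20, and each of the 9 genes had at least 1 such probe set.

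**Figure D1:**
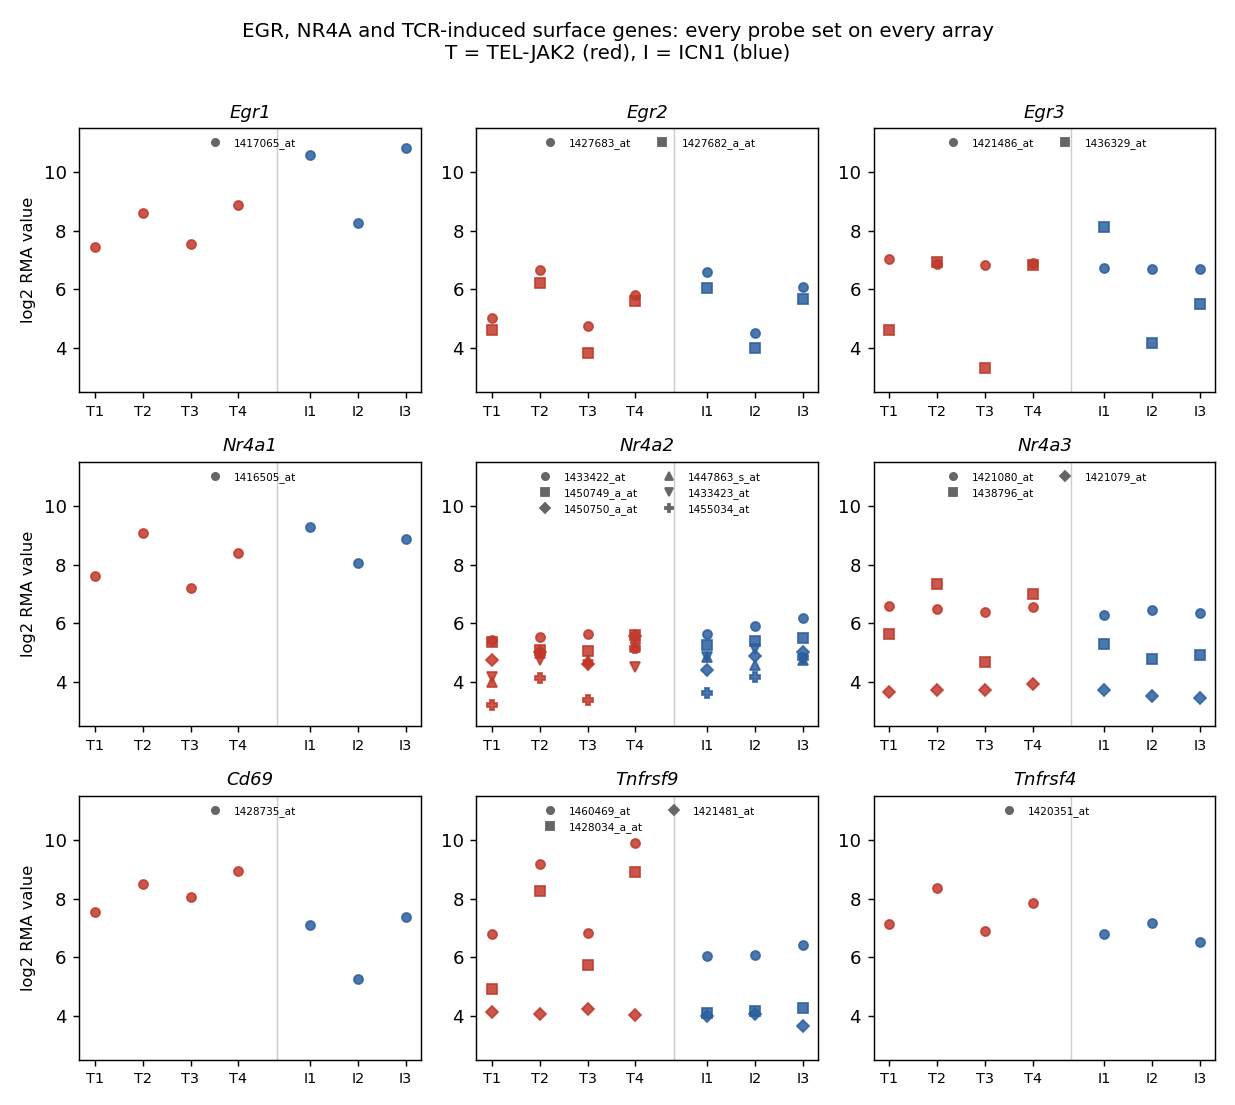
Log2 RMA value (y axis) of each of the 20 probe sets on each array (x axis), 1 panel per gene, with TEL-JAK2 replicates T1 to T4 in red and ICN1 replicates I1 to I3 in blue; marker shapes separate the probe sets of a gene. Tnfrsf9 reaches 9.18 and 9.91 in T2 and T4 from its brightest probe set, and Egr1 is lowest among the ICN1 arrays in I2 at 8.28.

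Among the EGR factors, Egr1, the immediate early factor that responds most broadly to MAP kinase signals, read 7.46, 8.62, 7.55 and 8.89 in TEL-JAK2 replicates 1 to 4, against 10.59, 8.28 and 10.82 in ICN1 replicates 1 to 3. The groups overlapped through ICN1 replicate 2, which stood more than 2 units under the other ICN1 arrays. The mean was 8.13 ± 0.73 (SD, n = 4) in TEL-JAK2 and 9.90 ± 1.40 (SD, n = 3) in ICN1, a difference of -1.77 ± 0.66 (SE), or 3.41-fold lower in TEL-JAK2, with an adjusted p = 0.109 by limma and a 95% interval of -3.32 to -0.22. Without ICN1 replicate 2 Egr1 was called lower (-2.58, adjusted p = 0.0127 by limma), as it was with CD3 centring (-2.39, adjusted p = 0.0132). Without ICN1 replicates 1 and 2 together the difference was -2.69, where the within-group spread came from the TEL-JAK2 arrays alone. Leaving out any other single array did not give a call.

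Egr2, which takes part in thymocyte positive selection, read 5.01, 6.65, 4.75 and 5.81 in the TEL-JAK2 arrays, against 6.58, 4.50 and 6.10 in the ICN1 arrays (probe set 1427683_at). Its other probe set, 1427682_a_at, read 4.61, 6.24, 3.84 and 5.59 in TEL-JAK2, against 6.04, 4.01 and 5.66 in ICN1. Both probe sets put TEL-JAK2 replicates 2 and 4 above replicates 1 and 3, and ICN1 replicate 2 under the other ICN1 arrays. The groups overlapped over almost their whole range, with differences of -0.17 ± 0.60 and -0.16 ± 0.67 (adjusted p = 0.881 and 0.897 by limma). Their intervals, -1.58 to 1.24 and -1.73 to 1.40, leave room for more than a doubling in either direction. The sign turned when 1 array was left out, with values of -0.79 to 0.26 and of -0.78 to 0.24.

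The probe sets of Egr3, a close relative of Egr2 in T-cell selection and restraint, disagreed. Probe set 1436329_at read 4.61, 6.94, 3.31 and 6.83 in TEL-JAK2, against 8.14, 4.17 and 5.50 in ICN1, the widest within-group spread of all members (SD 1.87, percentile 99.8 of all probe sets). Its difference was -0.51 ± 1.18 (adjusted p = 0.813 by limma), with a 95% interval of -3.26 to 2.23. The direction turned on single arrays, from -1.39 without ICN1 replicate 2 to 0.59 without ICN1 replicate 1. Probe set 1421486_at was flat, at 7.03, 6.85, 6.83 and 6.90 in TEL-JAK2, against 6.72, 6.69 and 6.70 in ICN1. Its groups did not overlap, but the difference was 0.20 ± 0.09 (adjusted p = 0.163), and its within-group SD of 0.07 lay at percentile 4.0 of all probe sets.

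Nr4a1 (Nur77), the NR4A receptor most used as a reporter of antigen receptor signals, read 7.60, 9.07, 7.22 and 8.40 in TEL-JAK2, against 9.28, 8.07 and 8.88 in ICN1. The order of arrays within each leukemia was the one seen for Egr2, and the groups overlapped. The difference was -0.67 ± 0.48 (adjusted p = 0.387 by limma) and -1.29 with CD3 centring, where it was called lower (adjusted p = 0.0389).

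Nr4a2 (Nurr1) had 6 probe sets, all at or under 6.18 on every array, near the array medians or below them. The brightest, 1433422_at, read 5.44, 5.54, 5.63 and 5.38 in TEL-JAK2, against 5.64, 5.91 and 6.18 in ICN1. The groups did not overlap, with a difference of -0.41 ± 0.14 (adjusted p = 0.0863 by limma). This difference was called without ICN1 replicate 1 (-0.55, adjusted p = 0.0385) and was -0.68 without ICN1 replicates 1 and 2 together. The groups of 1433423_at did not overlap either (-0.42 ± 0.16, adjusted p = 0.108). The other 4 differed by -0.23 to 0.23, with adjusted p from 0.59 to 0.992. Of these, 1455034_at, the dimmest, read 3.21, 4.12, 3.38 and 5.15 in TEL-JAK2, against 3.61, 4.16 and 4.81 in ICN1, again highest in TEL-JAK2 replicates 2 and 4.

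Nr4a3 (Nor1), which acts redundantly with Nr4a1 in thymocytes, varied from 1 of its 3 probe sets. Probe set 1438796_at read 5.63, 7.35, 4.69 and 6.99 in TEL-JAK2, against 5.30, 4.80 and 4.92 in ICN1. TEL-JAK2 replicates 2 and 4 stood more than 1 unit above every other array, while replicate 3 lay under all ICN1 arrays. The difference of 1.16 ± 0.61 was not called (adjusted p = 0.243 by limma). Probe sets 1421080_at (6.38 to 6.60 in TEL-JAK2 and 6.30 to 6.45 in ICN1) and 1421079_at (3.67 to 3.92 in TEL-JAK2 and 3.45 to 3.72 in ICN1) were flat, with adjusted p = 0.38 and 0.27.

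**Figure D2:**
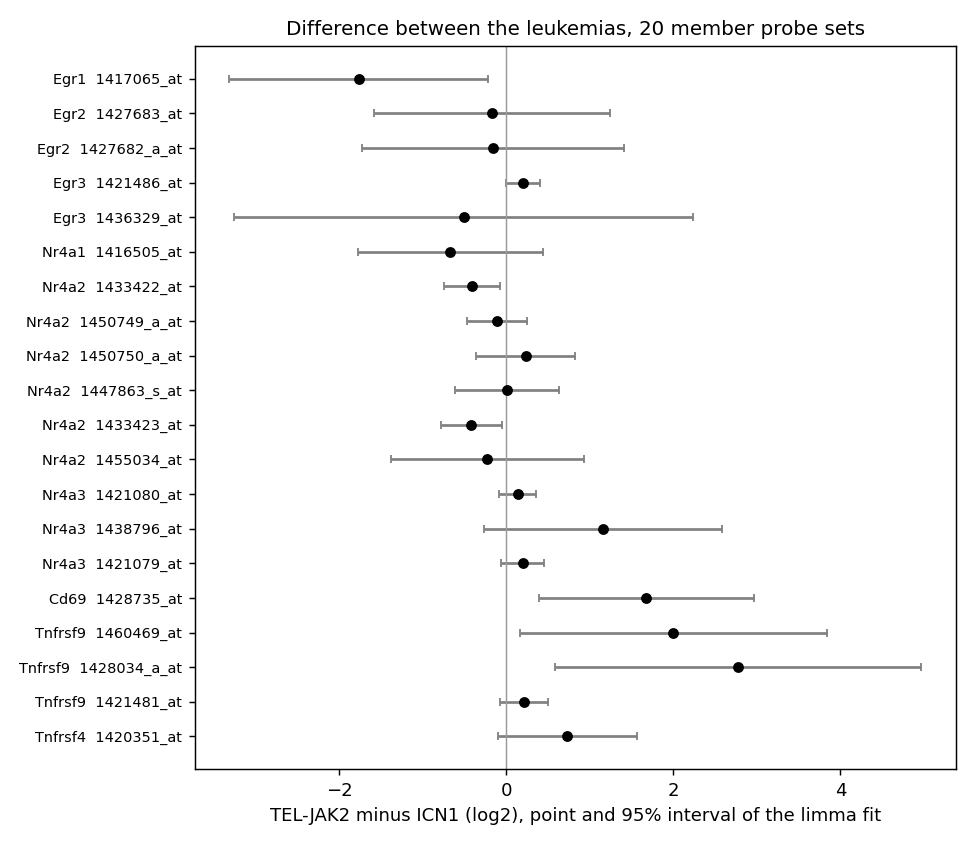
TEL-JAK2 minus ICN1 on the log2 scale (x axis) for the 20 member probe sets (y axis), as the estimate and 95% interval of the limma fit without adjustment for multiple tests. Intervals of 6 probe sets lie off 0, from Egr1 at -1.77 to Tnfrsf9 at 2.78, and none passed the adjusted threshold.

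Among the surface genes, Cd69 read 7.54, 8.52, 8.05 and 8.94 in TEL-JAK2, against 7.11, 5.25 and 7.39 in ICN1. Every TEL-JAK2 array stood above every ICN1 array, by little between TEL-JAK2 replicate 1 and ICN1 replicate 3, and ICN1 replicate 2 was far under the rest. The mean was 8.26 ± 0.60 (SD, n = 4) in TEL-JAK2 and 6.58 ± 1.16 (SD, n = 3) in ICN1, a difference of 1.68 ± 0.55, or 3.20-fold, with an adjusted p = 0.074 by limma and a 95% interval of 0.39 to 2.96. It was called when dim probe sets were left out of the adjustment (adjusted p = 0.0476). It read 1.01 without ICN1 replicate 2 alone (adjusted p = 0.129 by limma), 0.87 without ICN1 replicates 1 and 2 and 1.05 with CD3 centring (adjusted p = 0.111).

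Tnfrsf9, whose product 4-1BB sustains the survival of activated T cells, held the largest difference of the members. Probe set 1428034_a_at read 4.91, 8.25, 5.74 and 8.91 in TEL-JAK2, against 4.11, 4.17 and 4.26 in ICN1. All TEL-JAK2 arrays lay above all ICN1 arrays, replicates 2 and 4 far above and replicate 1 by less than 1 unit. The mean was 6.96 ± 1.93 (SD, n = 4) in TEL-JAK2 and 4.18 ± 0.08 (SD, n = 3) in ICN1, so the difference of 2.78 ± 0.94, or 6.85-fold, had an adjusted p = 0.0809 by limma. It was called without TEL-JAK2 replicate 1 (3.46, adjusted p = 0.0339). It was smaller without TEL-JAK2 replicate 4 (2.12, adjusted p = 0.122 by limma) and without TEL-JAK2 replicate 2 (2.34, adjusted p = 0.171), and not called in either case. Without ICN1 replicates 1 and 2 the difference was 2.69.

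The second probe set of Tnfrsf9, 1460469_at, showed the same order, at 6.78, 9.18, 6.84 and 9.91 in TEL-JAK2, against 6.04, 6.09 and 6.41 in ICN1 (2.00 ± 0.79, adjusted p = 0.125). The third, 1421481_at, stayed between 4.03 and 4.25 in TEL-JAK2 and between 3.66 and 4.06 in ICN1 (0.21 ± 0.12, adjusted p = 0.299), so the variation was carried by 2 of 3 probe sets. Tnfrsf4, whose product OX40 is a costimulatory receptor of activated T cells, read 7.14, 8.36, 6.91 and 7.85 in TEL-JAK2, against 6.80, 7.17 and 6.54 in ICN1. TEL-JAK2 replicates 2 and 4 were again highest, replicates 1 and 3 overlapped the ICN1 arrays, and the difference of 0.73 ± 0.35 was not called (adjusted p = 0.206).

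Without ICN1 replicates 1 and 2, Egr1 differed by -2.69 and 1433422_at of Nr4a2 by -0.68. Egr2 then differed by -0.54 and -0.59, Egr3 by -0.08 (1436329_at) and 0.20 (1421486_at) and Nr4a1 by -0.81. The other 5 probe sets of Nr4a2 differed by -0.85 (1455034_at) to -0.02, among which 1450750_a_at and 1447863_s_at changed sign at that small value. Nr4a3 differed by 1.24 (1438796_at), 0.14 and 0.31, Tnfrsf9 by 1.77 (1460469_at), 2.69 (1428034_a_at) and 0.45 (1421481_at), and Tnfrsf4 by 1.03. A single ICN1 array was then left, so the within-group spread came from the TEL-JAK2 arrays alone and only differences are given.

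Across the members, TEL-JAK2 replicates 2 and 4 were the 2 highest of the 4 TEL-JAK2 arrays in 14 of 20 probe sets, against 17.9% of all probe sets. ICN1 replicate 2 was the lowest of its group in 9 of the 20, against 33.7% of all probe sets. Probe sets of 1 gene share their transcript, so these counts are descriptions. In TEL-JAK2 the order held for Egr1, Egr2, Nr4a1, Cd69, Tnfrsf9 and Tnfrsf4 from their brightest probe sets. In ICN1 the low replicate 2 was seen in Egr1, Egr2, Egr3 (1436329_at), Nr4a1 and Cd69, while Tnfrsf9 and Tnfrsf4 were not lowest there. The flat probe set of Egr3, 1421486_at, was lowest there by little, at 6.69 against 6.72 and 6.70.

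**Figure D3:**
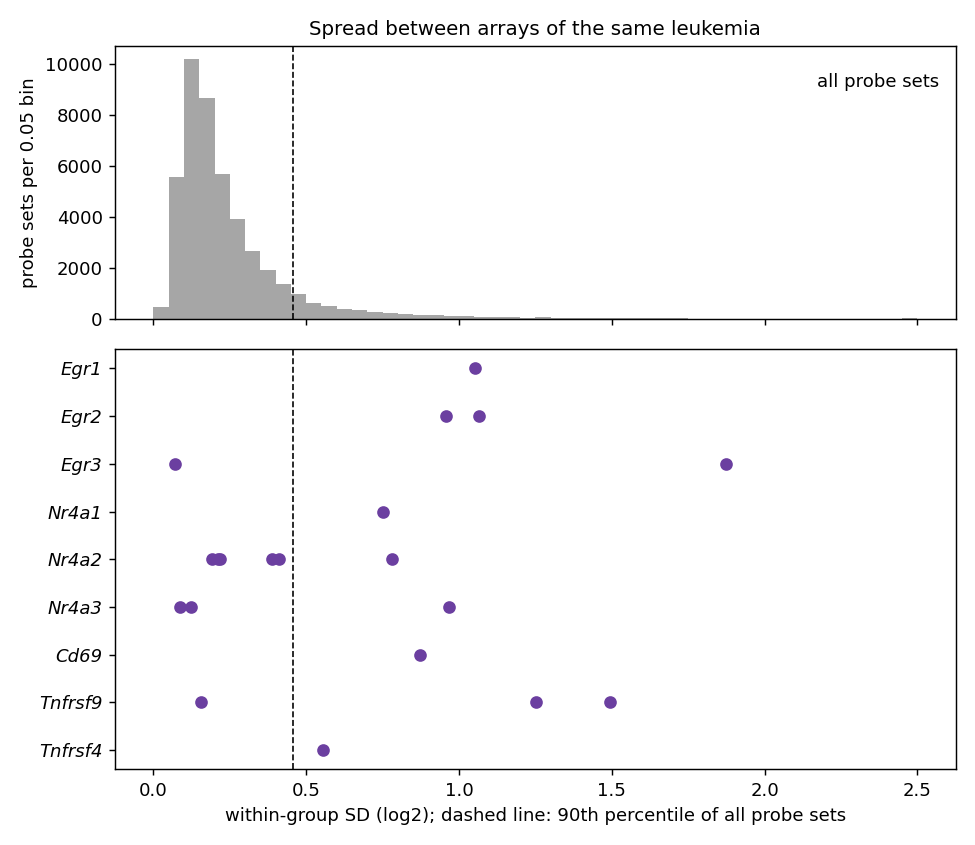
Pooled SD between arrays of the same leukemia (x axis, log2) for all 45037 probe sets as a histogram (top) and for each member probe set as a point (bottom). The dashed line is the 90th percentile of all probe sets, 0.46, and 11 of the 20 points lie to its right, while the flat probe sets of Egr3, Nr4a3 and Tnfrsf9 lie far to its left.

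Profiles were compared by the root mean square distance between mean-centred values over the 7 arrays, in log2 units, where a small value means that 2 probe sets differ little in shape. Among members, the flat probe sets of Egr3 and Nr4a3 (1421080_at) lay closest at 0.07. Of variable ones, Egr2 (1427683_at) and Nr4a1 lay 0.36 apart, and Nr4a3 (1438796_at) and Tnfrsf4 at 0.52, whereas Egr1 and Tnfrsf9 (1428034_a_at) stood farthest apart at 2.50. The gene closest to Egr2 was Fos, an immediate early AP-1 subunit, at a distance of 0.28, with 6.17, 7.38, 6.02 and 7.12 in TEL-JAK2, against 7.10, 5.42 and 6.83 in ICN1. The gene after it was Tfec (0.37), a transcription factor of the MiT family, then Cfb (0.39), complement factor B. Tfec was also the closest to Nr4a1 (0.22), before Repin1 (0.23) and Lap3 (0.26).

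Closest to Egr1 were Ryk (0.48), a WNT receptor, Spred1 (0.51), an inhibitor of MAP kinase signals, and Nab2 (0.52), the EGR corepressor. Closest to Cd69 were Gimap8 (0.37), Dnmbp (0.41) and Arid5a (0.42). Closest to Tnfrsf9 (1460469_at) were Gpr18 (0.36), Ppef2 (0.41) and Cd7 (0.47), and closest to Tnfrsf4 were Lrrk1 (0.15), Cd244a (0.16) and Nuak2 (0.18). For the variable probe set of Nr4a3, chosen after its values were seen, the closest genes were Pglyrp1 (0.19), Ccr1 (0.22) and Cxcl10 (0.24). For that of Egr3, chosen in the same way, the closest were Itih5 (0.63), Hopx (0.71) and Ahnak (0.71), and for Tnfrsf9 (1428034_a_at) Cd7 (0.63), Tbx21 (0.65) and Ppef2 (0.67).

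Cell type markers were set beside this order of arrays. All 12 measured monocyte and macrophage markers were highest in TEL-JAK2 replicates 2 and 4 among the TEL-JAK2 arrays, and the list mean was 6.94, 8.32, 6.23 and 8.43 in TEL-JAK2 replicates 1 to 4. C1qb, a macrophage complement gene, read 7.83, 10.73, 7.15 and 9.96 there. The same order held for 5 of 8 NK cell markers (list mean 6.88, 7.89, 6.60 and 7.54), for 4 of 11 dendritic cell markers (8.25, 8.64, 7.19 and 8.13), for 0 of 11 B-lineage markers and for 1 of 9 T-lineage markers. The NK cell gene Ncr1 stayed between 4.33 and 4.61 in TEL-JAK2. The part of these cells in the values of Egr2, Nr4a3, Tnfrsf9 and Tnfrsf4 was not tested.

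In ICN1, the monocyte and macrophage list averaged 9.91, 9.64 and 8.54 in replicates 1 to 3, with 1 of 12 markers lowest in replicate 2. Granulocyte markers were highest in ICN1 replicate 2 (list mean 7.64, against 6.78 and 6.04 in replicates 1 and 3), and the part of either cell type in the ICN1 values of the members was not tested.

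**Figure D4:**
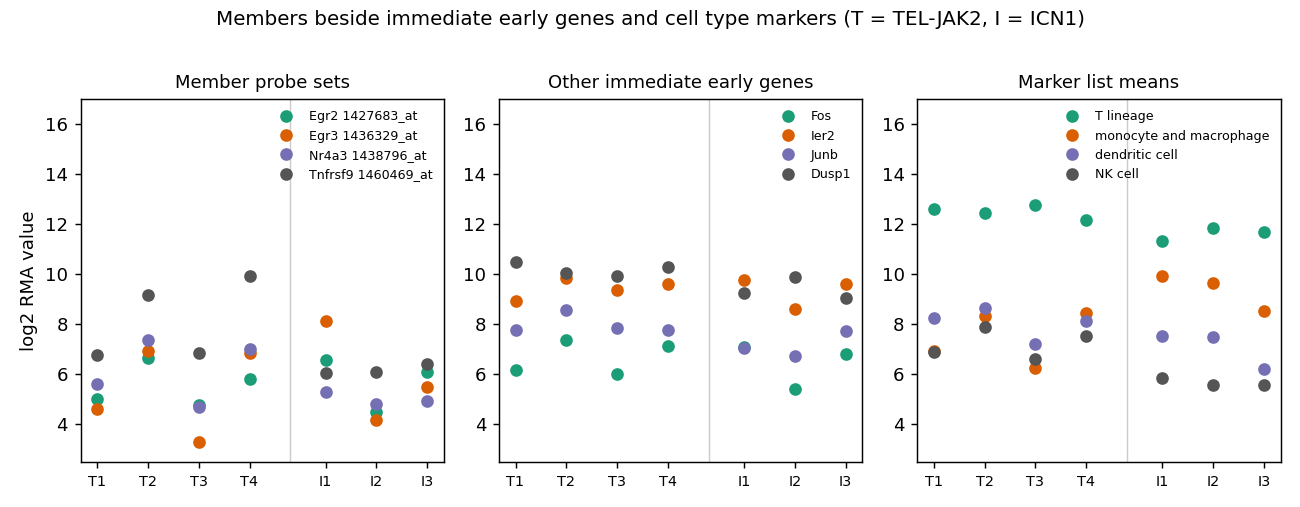
Log2 RMA values (y axis) by array (x axis, T1 to T4 TEL-JAK2 and I1 to I3 ICN1) of 4 member probe sets (left), 4 other immediate early genes (middle) and the means of 4 marker lists (right). The monocyte and macrophage mean is higher in T2 and T4 (8.32 and 8.43) than in T1 and T3 (6.94 and 6.23), as are the 4 members. Egr3 and Nr4a3 are drawn from their most variable probe set, and their flat probe sets are not shown. Dusp1, Junb and the T-lineage and dendritic cell means do not follow that order.

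The other genes of the pathway were taken from 8 lists, each gene by its brightest probe set. Of 98 listed genes 92 were measured, and 30 were called higher and 5 lower in TEL-JAK2, against 11.3% and 11.7% (23% in all) of the brightest probe sets of all 18193 genes. With CD3 centring the split was 16 higher and 25 lower. The shares over all probe sets were then 3.46% and 66.6%, and none was computed for brightest probe sets. For each list below, the 11.3% and 11.7% apply to the limma calls and the 3.46% and 66.6% to the counts with CD3 centring. In the smallest list, Egr4, Nab1 and Nab2, 0 of 3 were called by limma and none had an unadjusted p under 0.05. Nab2 nevertheless had the pattern of the EGR genes, at 5.54, 7.38, 4.89 and 6.80 in TEL-JAK2, against 8.07, 6.02 and 7.89 in ICN1 (-1.18 ± 0.72, adjusted p = 0.312). Egr4 (-0.05 ± 0.18) and Nab1 (-0.15 ± 0.18) differed by less than their errors. With CD3 centring all 3 were called lower, as were 66.6% of all probe sets.

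Upstream of the members, antigen receptor signalling genes were the list with the most calls. Of 13 measured, 9 were higher and 0 lower in TEL-JAK2 (list median 0.86), among them Plcg1, the phospholipase that starts the calcium signal (10.51 to 10.74 in TEL-JAK2 and 9.60 to 9.66 in ICN1), Prkcq (1.22 ± 0.15) and the adaptor Lat (1.11 ± 0.15). Fyn (0.36 ± 0.30) and Ptpn22 (0.81 ± 0.31) were not called. With CD3 centring, which uses 4 genes of this list, 3 stayed higher. Calcineurin and NFAT genes had 3 of 9 higher, namely Nfatc2 (2.46 ± 0.37), the calcineurin subunit Ppp3ca (2.22 ± 0.35) and Nfatc1 (1.47 ± 0.25). Rcan1, an NFAT target that inhibits calcineurin, was lower (-1.20 ± 0.17), and the other 5, with Rcan2 (0.13 ± 0.10) and Ppp3cb (-0.05 ± 0.12) among them, were not called (list median 0.24). With CD3 centring 3 of the 9 were higher and 4 lower.

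Of 9 measured transcription factors that act on EGR or NR4A promoters, 4 were higher and 0 lower (list median 0.41). They included Mef2a (1.44 ± 0.28), Mef2d (0.70 ± 0.16) and the corepressor Hdac7 (1.07 ± 0.22), which hold Nr4a1 under control in thymocytes. Srf, the serum response factor, differed by less than its error (adjusted p = 0.996), as did Mef2c (0.06 ± 0.31). With CD3 centring 2 of the 9 were higher and 2 lower.

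Of 22 other immediate early genes, 6 were higher, 1 lower and 15 not called (list median 0.22). With CD3 centring 3 of the 22 were higher and 6 lower. Without that centring, the brightest probe sets of all genes were higher in 11.3% and lower in 11.7%. Klf6 (2.55 ± 0.30), the MAP kinase inhibitor Spry1 (1.75 ± 0.30) and Jund (0.77 ± 0.16) were higher, and Ier3, a stress-induced regulator of survival, was lower (-2.76 ± 0.49). Jun (-0.16 ± 1.04) and Dusp2 (-0.02 ± 0.13) were not called. In 16 of these 22 genes ICN1 replicate 2 was the lowest ICN1 array, and in 7 TEL-JAK2 replicates 2 and 4 were the highest of their group. Of 5 heat shock genes, 3 were highest in TEL-JAK2 replicates 2 and 4 among the TEL-JAK2 arrays, against 17.9% of all probe sets. The list mean was 7.36, 7.72, 7.21 and 7.63 in TEL-JAK2 replicates 1 to 4. Among these genes, Hspa1b read 5.31, 6.88, 5.05 and 6.38 in TEL-JAK2, against 5.42, 5.45 and 5.65 in ICN1. Hspa1a stayed between 4.57 and 5.06 in TEL-JAK2 and between 4.61 and 4.96 in ICN1.

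**Figure D5:**
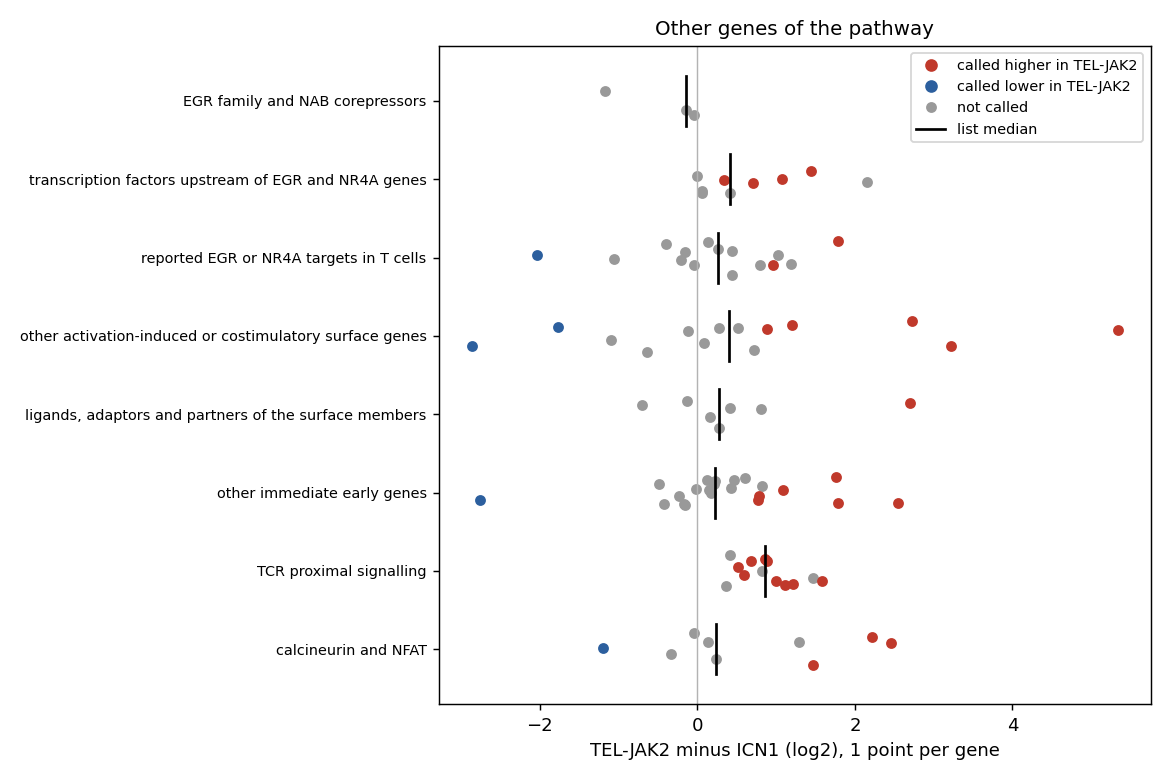
TEL-JAK2 minus ICN1 (x axis, log2) for the 92 measured genes of 8 pathway lists (y axis), 1 point per gene, red where called higher in TEL-JAK2, blue where called lower and grey where not called, with the list median as a black bar. Antigen receptor signalling genes lie right of 0 with 9 of 13 called, while 0 of 3 EGR family and NAB genes were called.

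Reported targets of EGR and NR4A factors in T cells had 2 of 15 higher, 1 lower and 12 not called (list median 0.26). Over the brightest probe sets of all genes the shares were 11.3% higher and 11.7% lower. The pro-apoptotic Bcl2l11 (1.78 ± 0.45) and the factor Tox (0.96 ± 0.25) were higher, and Rnf128, an anergy-associated ubiquitin ligase, was lower (-2.03 ± 0.25), with 3.95 to 4.94 in TEL-JAK2 and 6.11 to 6.59 in ICN1. Lag3 (-0.16 ± 0.80) and Gadd45b (-0.05 ± 0.41) were not called. Lag3, an inhibitory receptor, read 5.13, 8.05, 4.87 and 6.93 in TEL-JAK2, against 7.29, 5.88 and 6.04 in ICN1. With CD3 centring 1 of the 15 was higher and 3 lower.

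Of 14 other activation-induced or costimulatory surface genes, 5 were higher, 2 lower and 7 not called (list median 0.40), and 3 were higher and 5 lower with CD3 centring. Ctla4, an inhibitory receptor, read 11.80, 11.89, 11.80 and 11.68 in TEL-JAK2, against 6.18, 6.58 and 6.59 in ICN1 (5.34 ± 0.13, adjusted p = 1.36e-06 by limma). Tnfrsf18 (GITR), a relative of OX40, was higher (3.21 ± 0.33), as was Cd27 (0.88 ± 0.19). Cd5, whose level follows antigen receptor signal strength in thymocytes, was lower (-1.76 ± 0.49), as was the adhesion receptor Cd44 (-2.86 ± 0.66). Tnfrsf25 (-0.12 ± 0.50) and Cd200 (0.28 ± 0.41) were not called.

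The brightest probe sets of all genes were called higher in 11.3% and lower in 11.7%. Among ligands, adaptors and partners of the surface members, 1 of 7 was higher and 0 lower (list median 0.28). This was Traf1, the adaptor of 4-1BB that is itself induced on activation (2.69 ± 0.41, adjusted p = 0.00429 by limma), with 7.87, 8.77, 7.47 and 7.26 in TEL-JAK2, against 5.79, 5.12 and 4.54 in ICN1. Its values did not follow the order of Tnfrsf9 among the TEL-JAK2 arrays. S1pr1, the egress receptor that CD69 removes, read 6.69, 8.89, 6.27 and 9.23 in TEL-JAK2, against 6.83, 6.72 and 10.18 in ICN1 (-0.14 ± 1.07), and its activator Klf2 differed by 0.28 ± 0.89. With CD3 centring 1 of the 7 was higher and 2 were lower. The ligand genes Tnfsf9 (5.79 to 6.03 in TEL-JAK2 and 4.52 to 5.84 in ICN1) and Tnfsf4 were not called.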

How the data were processed

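The authors deposited 1 table of log2 values, 1 per probe set and array (7 arrays), made with RMA according to the submitters' processing notes. The version and settings of RMA were not in the sources used here. Values ran from 2.57 to 14.86, and no transformation was added. RMA draws arrays to 1 distribution and compresses differences near background. No scan date or detection call entered the fits. Of 45037 probe sets, 34945 had 1 gene symbol in the platform annotation, 932 several and 9160 none. All 7 columns were used.

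All probe sets were fitted with limma 3.58.1 in R 4.3.3 (lmFit, eBayes, two-sided), as TEL-JAK2 minus ICN1 with the standard error (SE), and p-values were adjusted by Benjamini-Hochberg over all 45037. Lists took each gene's probe set with the highest mean. Members, lists and tests were chosen with earlier results of these data known. The text names every member, up to 3 called genes per direction and up to 2 uncalled genes of each list, and the 3 closest profiles of members that ranged over at least 1 log2. Other genes named beside the members, among them C1qb, Ncr1, Hspa1a, Hspa1b, Tnfsf9 and Tnfsf4, were picked after their values were seen. On simulated arrays with 45037 probe sets the fit recovered 54 of 100 changes of 1 log2 and 86 of 100 of 2 log2, with 8 false calls. The changes were put on probe sets drawn from the whole array, whose median within-group SD was 0.18. Of the 20 member probe sets, 11 lay above the 90th percentile of 0.46, so these rates do not apply to the members. The alternatives changed the feature tested, scaling, variance model, test, threshold and arrays. Figures were drawn with matplotlib 3.10.9. Some listed genes were not analysed here.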

Additional observations from a re-analysis of the deposited data

How the results depend on the processing

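The 20 member probe sets were recomputed under the alternatives, and of 389 values 352 stayed uncalled in the same direction, 11 became called in it and 26 turned sign, 2 of them into calls, both with CD3 centring (1421080_at of Nr4a3, -0.49, and 1421481_at of Tnfrsf9, -0.41). The other sign changes with CD3 centring were 1421486_at of Egr3 (-0.42), 1421079_at of Nr4a3 (-0.43), and 1450750_a_at (-0.39) and 1447863_s_at (-0.62) of Nr4a2. The probe sets of Egr3 averaged gave -0.16 against 0.20 for the brightest. The threshold of 0.01 and the test against a 1.5-fold difference kept the main differences under a stricter rule. Their values, which are among the 352, could not become called or turn sign. Nr4a2's 1447863_s_at, at 0.01, also turned with array weights (-0.11), cyclic loess (-0.043), repeated quantile normalization (-0.015) and without ICN1 replicates 1 and 2 (-0.022), where 1450750_a_at also turned (-0.017). Leaving out 1 array turned Egr2 (-0.79 to 0.26 and -0.78 to 0.24), 1436329_at of Egr3 (-1.39 to 0.59), and 1447863_s_at (-0.15 to 0.25) and 1455034_at (-0.62 to 0.081) of Nr4a2. Counts of member probe sets called higher, 0 as reported, were 1 with dim probe sets left out and 0 to 1 with 1 array left out. Counts called lower, 0 as reported, were 7 with CD3 centring (Egr1, Nr4a1, 3 of Nr4a2, 1 of Nr4a3 and 1 of Tnfrsf9). With 1 array left out they were 0 to 1.

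Over all probe sets, 4172 were called higher and 4660 lower. These became 2165 and 2215 with 1 probe set per gene, 2096 and 2233 with probe sets averaged by gene, 1812 and 2340 at an adjusted p under 0.01, 1558 and 30005 with CD3 centring, 889 and 1307 against a 1.5-fold difference and 1009 and 1257 with unequal variances, and 2286 higher without ICN1 replicates 1 and 2. Leaving out 1 array gave 2801 to 4170 higher and 3374 to 4393 lower. Pathway genes, 30 higher and 5 lower, became 12 and 3 at an adjusted p under 0.01, 16 and 25 with CD3 centring, 8 and 2 against a 1.5-fold difference, 4 and 1 with unequal variances, and 20 to 26 and 3 to 5 with 1 array left out. The cause was not tested, except that gene-level fits test fewer features. The offset for unlogged values was not run, since values were on the log2 scale.

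Only 3 ICN1 and 4 TEL-JAK2 arrays limit the precision, and members with a within-group SD near or above 1 have intervals over 2 units wide. No paired analysis was possible because the labels give no shared replicate numbers. In TEL-JAK2 no member array lay far enough from its group by Dixon's test to be marked, and groups of 3 were not tested. That test looks for a single array apart from the rest, so 2 arrays that stand high together can go unmarked.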
